A study of Mus musculus with 8 samples.

Results

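The genes of the T cell receptor (TCR) complex and its first signalling steps were followed across 8 single-colour Agilent arrays of mouse CD8+ T cells. The 10 genes were chosen by name: the CD3 chains Cd3d, Cd3e and Cd3g, the zeta chain Cd247, the CD8 coreceptor chains Cd8a and Cd8b1, the kinases Lck and Zap70, and the adaptors Lat and Lcp2. They are 10 of 19892 genes tested, and 16 of the 41174 probes on the array carry their names. All 10 genes and all 16 probes were well above background on all 8 arrays. Each gene is given by its brightest probe over the 7 conditions, and the other probes are set beside it.

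The cells were CD8+ T cells from the spleens of OT-I mice on the C57BL6 background, enriched with magnetic beads and checked for purity by flow cytometry. Every cell in every group carried the OT-I transgene, which encodes a TCR specific for SIINFEKL, a peptide of ovalbumin, when H-2Kb presents it. The groups were untreated cells (2 arrays), IFNβ (interferon beta) by itself for 2 h or 7 h, TCR stimulation with SIINFEKL streptamers for 1 h or 6 h, and 1 h of IFNβ combined with 1 h or 6 h of TCR stimulation, with 1 array for each of these 6 treated groups. Streptamers are multimers of the peptide-loaded class I molecule, so no antigen presenting cell is needed to deliver the stimulus. The labels give no age, and they do not say whether arrays came from separate animals or cultures, so the p-values apply only to these samples.

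As background, the clonotypic TCR chains bind peptide and MHC but have no signalling tail of their own. The CD3 and zeta chains carry the tyrosine motifs that Lck, brought in by CD8, phosphorylates. Zap70 binds the phosphorylated motifs and in turn phosphorylates Lat and SLP-76, the product of Lcp2, on which the calcium and Ras branches of the response are assembled. Engaged receptors are taken in from the cell surface and degraded, and the arrays measure only the messenger RNA of these proteins.

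Each slide held 4 arrays. The first carried untreated replicate 1, IFNβ 2 h and both arrays with 1 h of TCR stimulation, and the second carried untreated replicate 2, IFNβ 7 h and both arrays with 6 h. Slide and TCR time therefore cannot be told apart except through the untreated and IFNβ arrays. Each array had 45018 spots, between 26065 and 29533 of the non-control spots were well above background, and no spot was saturated. The untreated arrays differed on 143 repeated probes by a robust SD of 0.03 (log2), which is the spot noise. For the 10 genes they differed by at most 0.12. Over all genes the differences had a median size of 0.07 and an SD of 0.36, and 2.993% exceeded 2-fold. The untreated arrays were counted as 1 sample because they lay close on the repeated probes and the 10 genes. The deposited value table and the scanner files name the pair of arrays with 1 h of TCR in opposite ways, and the value table's naming was used. Under it the interferon-induced Isg15 had a scaled signal of 4743 on the TCR 1 h array and 204800 on the array with IFNβ and TCR 1 h. Untreated cells read 1983 and 1750, and cells with IFNβ alone read 150800 and 257200. For Ifit1, also interferon-induced, the pair read 632.9 and 151000. Under the scanner files' naming the readings of the pair change places.

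The labelled cell type was checked against marker genes. The summed signal of 8 CD8 T cell markers, which include 6 of the 10 genes, was 617400 and 618900 in the untreated arrays. It was 832000 and 851800 with IFNβ alone, 732200 and 623000 with TCR for 1 h, and 309100 and 329400 with TCR for 6 h. Most of that sum came from the genes under study, so its course restates theirs and is no separate check. The remaining markers are Cd2 and Thy1. Cd2 read 34910 and 34480 in untreated cells and 20780 and 32710 at 6 h. Thy1 read 84800 and 84860 in untreated cells and 57930 and 42800 at 6 h. Cd4 lay between 91.87 and 149.8 on all 8 arrays, and the 4 CD4 T cell markers summed to between 265.2 and 838.4, highest on the TCR 1 h array. The 7 B cell markers measured summed to 13410 and 13070 in untreated cells, 41440 and 35420 with IFNβ alone for 2 h and 7 h, 11430 and 10240 with TCR for 1 h, and 4568 and 5339 with TCR for 6 h. The 5 class II presentation genes summed to between 23020 and 52200 without TCR, to 23760 and 16250 at 1 h and to 10490 and 13600 at 6 h.

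Signal is given on a linear scale on which each array's 75th percentile is 1500. Because a probe's brightness depends on its sequence, levels are compared across arrays for 1 probe and never between genes. Differences were estimated with limma in an additive model with terms for IFNβ, TCR 1 h and TCR 6 h over the 7 conditions, so a TCR difference compares 2 arrays with 3 samples without TCR. Each condition gave 1 sample, so the SE and p-values rest on departures from that model and not on spread between replicates. Those departures hold array noise together with any difference between IFNβ times, or between IFNβ with and without TCR. A gene is said to have risen or fallen where its Benjamini-Hochberg adjusted p over all genes was under 0.05.

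After 6 h of TCR stimulation both CD8 coreceptor chains, Cd8a and Cd8b1, and 2 of the 4 CD3 and zeta chains, Cd247 and Cd3g, fell. The downstream kinase Zap70 and the adaptor Lcp2 rose, and Cd3d, Cd3e, Lck and Lat did not pass the test. At 6 h 44.9% of all genes tested passed in either direction (22.2% higher and 22.7% lower), against 6 of these 10, so a call at 6 h was common on these arrays. That split was 4414 genes higher and 4507 lower, and with each array scaled to its median it was 5942 higher and 3530 lower. The median log2 difference was -0.65 for the 10 genes and 0.05 for all genes.

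**Figure D1:**
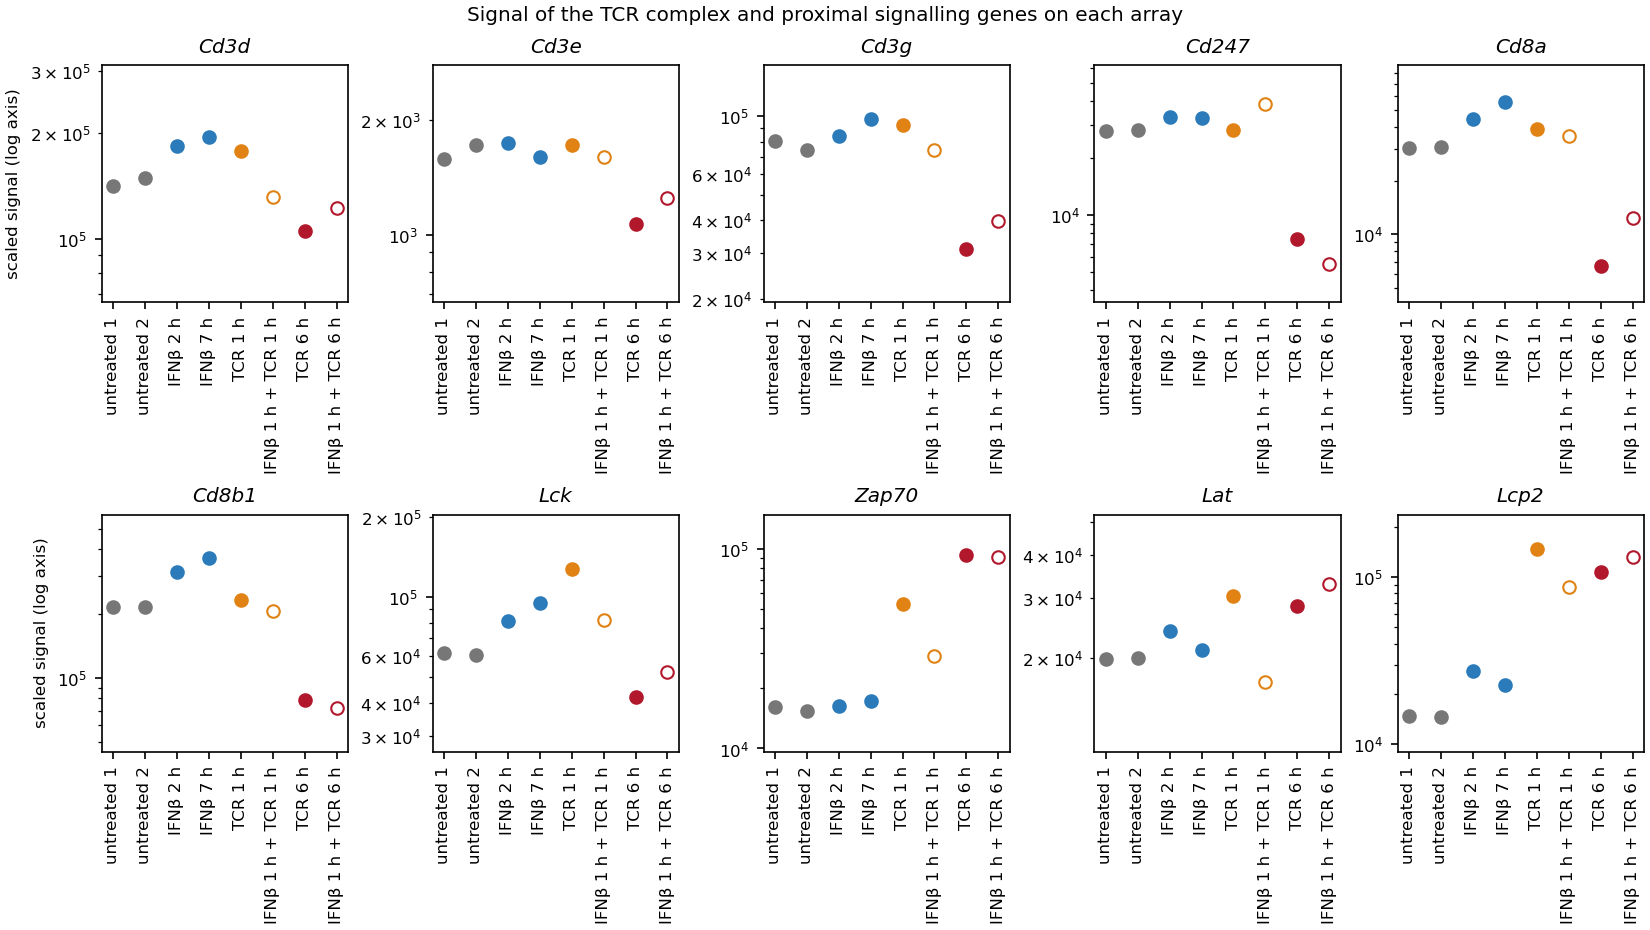
Scaled signal of each gene's brightest probe on all 8 arrays, on a log axis that is set separately for each gene. Open symbols are the 2 arrays with both treatments. Cd247, Cd8a, Cd8b1 and Cd3g lie low on both 6 h arrays, and Zap70 and Lcp2 lie high on all 4 arrays with TCR stimulation.

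**Figure D2:**
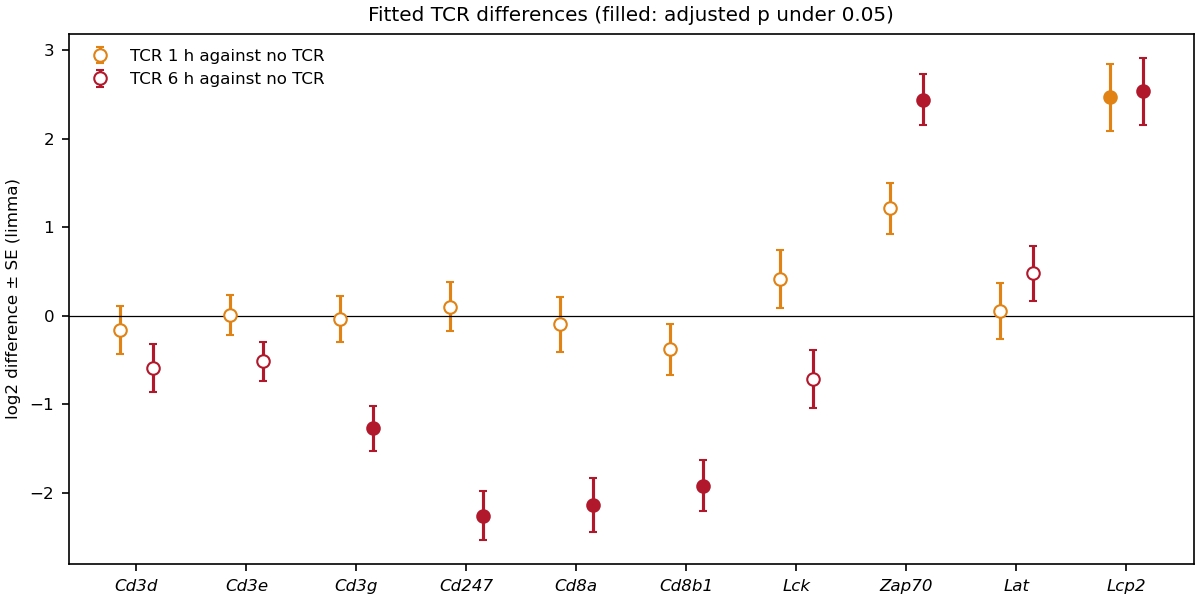
Estimated log2 difference with its standard error (bars) for TCR 1 h and TCR 6 h, each against the samples without TCR. Filled symbols passed an adjusted p of 0.05: 1 gene at 1 h and 6 genes at 6 h.

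The invariant chains of the receptor are described first. The probes of Cd3d and Cd3g and 1 probe of Cd247 extend over more genome than their own 60 bases and so cross a splice junction. They are shown whole, 5′ to 3′, because a probe over a junction reads spliced mRNA. On build mm9 the Cd3d probe spans 232 bases (chr9:44794171-44794402, plus strand), the Cd3g probe 585 bases (chr9:44781716-44782300, minus strand) and the Cd247 probe 1019 bases (chr1:167786567-167787585, plus strand).
Cd3d: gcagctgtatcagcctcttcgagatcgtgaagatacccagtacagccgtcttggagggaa
Cd3g: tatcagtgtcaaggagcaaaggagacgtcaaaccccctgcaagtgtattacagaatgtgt
Cd247: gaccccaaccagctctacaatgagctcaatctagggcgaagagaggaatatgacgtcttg

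Cd247 encodes the zeta chain, which has more tyrosine motifs than any other chain of the complex. Its brightest probe (chr1:167791855-167791914) had a signal of 27830 and 28180 in untreated cells, 33030 and 32590 with IFNβ for 2 h and 7 h, 28180 with TCR 1 h, 38740 with IFNβ and TCR 1 h, 7496 with TCR 6 h and 5515 with IFNβ and TCR 6 h. Both 6 h arrays lay far below the other 6, which ranged from 27830 to 38740. Cd247 fell by 2.26 on the log2 scale (SE 0.28, 2 arrays against 3 samples), to 20.9% of the level without TCR, with an adjusted p of 0.0014 in limma.

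There are 4 probes for Cd247, and each was low on both 6 h arrays. The junction-crossing probe shown above read 13810 and 14030 in untreated cells against 4017 and 2734 at 6 h, and fell by 2.37 (SE 0.31). The probe at chr1:167797296-167797355 read 1046 and 944.3 against 296.8 and 184.5, and fell by 2.22 (SE 0.29). The probe at chr1:167807278-167807337 read 1734 and 1787 against 426.8 and 112.9, and fell by 3.42 (SE 0.59). That probe and the brightest were each designed on a transcript record of their own, and the remaining probes share a record. The estimates of the 4 probes thus ranged from -2.22 to -3.42 and all passed the test across probes.

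Cd3g, the gamma chain, pairs with the epsilon chain in the complex. Its signal was 80350 and 74520 in untreated cells, 84290 and 98010 with IFNβ, 92870 and 74340 on the arrays with 1 h of TCR, and 31080 and 39840 on those with 6 h. The 6 h arrays lay below all others. Cd3g fell by 1.27 (SE 0.26, limma adjusted p = 0.0089), and without the TCR 6 h array the estimate was -1.11 with an adjusted p of 0.058.

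Cd3d, the delta chain, lies beside Cd3g on chromosome 9, on the opposite strand. Its signal was 141900 and 149400 in untreated cells, 183600 and 195100 with IFNβ, 178300 with TCR 1 h and 131500 with IFNβ and TCR 1 h. At 6 h it was 105800 and 122700, the lowest readings of the 8 arrays. The fitted log2 difference at 6 h was -0.59 with a 95% interval from -1.25 to 0.07 and did not pass in limma (adjusted p = 0.13). It did pass when arrays were quantile normalized, at -1.22 with an adjusted p of 0.0065. The 6 h arrays stood at 72.7% and 84.3% of the untreated mean for Cd3d, against 40.2% and 51.5% for its neighbour Cd3g, and the difference between the genes was not tested.

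Cd3e, the epsilon chain, is present in both CD3 dimers of the complex, and its 2 probes gave different readings. Which one is taken sets the size of the change. The first is the brightest by log2 mean, and the file describes the second as designed on a cDNA with an apparent retained intron.

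The first Cd3e probe read 1575 and 1714 in untreated cells, 1738 and 1602 with IFNβ, 1715 and 1597 at 1 h of TCR, and 1063 and 1251 at 6 h. Its estimate at 6 h was -0.52 (SE 0.22, 95% interval from -1.06 to 0.03), which did not pass in limma (adjusted p = 0.11). The second probe read 2866 and 2936 in untreated cells, 2123 and 1600 with IFNβ, 1779 and 2396 at 1 h and 707.8 and 539.7 at 6 h. It fell by 1.84 (SE 0.33, adjusted p = 0.0049 across probes). Both probes were lowest at 6 h, but only the second passed, and a test of the difference between them was not run. Their means were nearly equal on the log2 scale (10.55 and 10.54), whereas on the linear scale the second was the brighter (1516 and 1721), so the choice of Cd3e probe turns on how brightness is averaged.

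**Figure D3:**
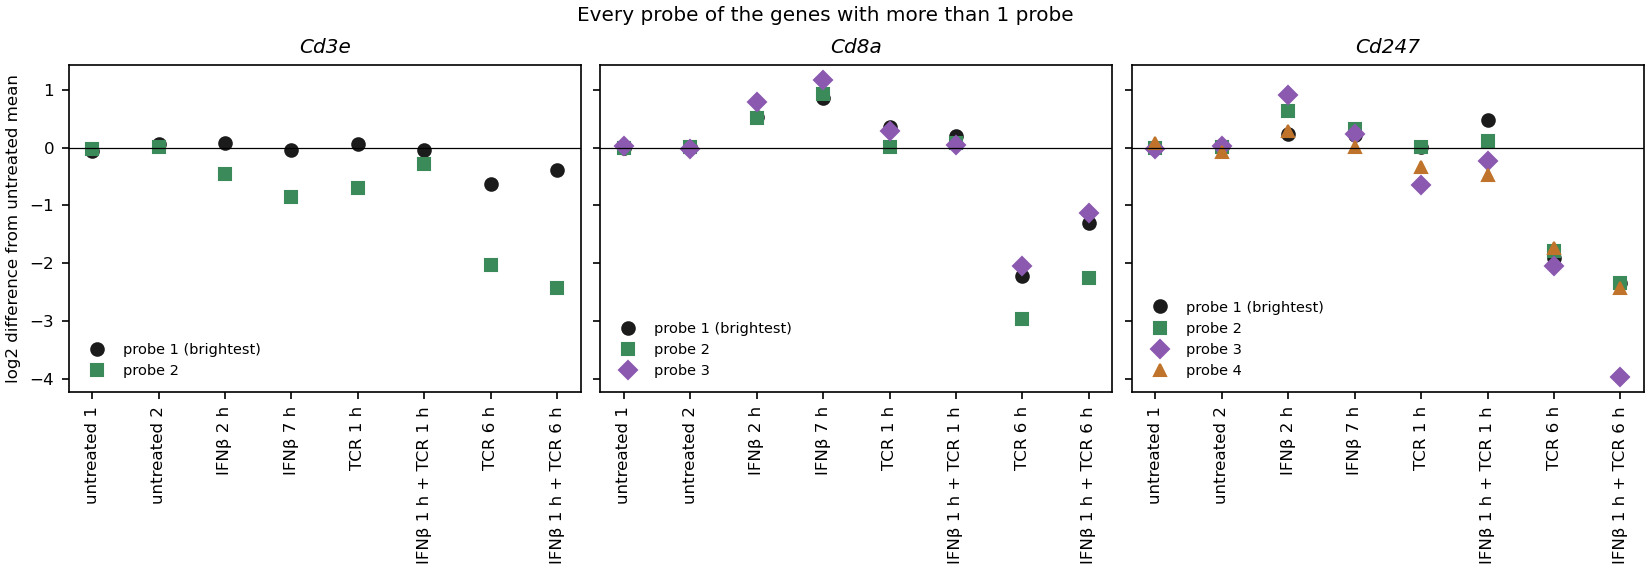
Log2 difference of every probe of Cd3e, Cd8a and Cd247 from its own mean over the 2 untreated arrays, on each of the 8 arrays. The 3 Cd8a probes and the 4 Cd247 probes are low together at 6 h, while the 2 Cd3e probes part.

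The CD8 coreceptor binds class I MHC and carries Lck to the engaged receptor, and both of its chains fell. Cd8a (chr6:71327330-71327389) had a signal of 30590 and 30820 in untreated cells, 44200 and 55500 with IFNβ for 2 h and 7 h, 39060 with TCR 1 h, 35470 with IFNβ and TCR 1 h, 6623 with TCR 6 h and 12380 with IFNβ and TCR 6 h. The 6 h arrays were the lowest and the arrays with IFNβ alone the highest. Cd8a fell by 2.14 (SE 0.31, limma adjusted p = 0.0025), to 22.7% of the level without TCR.

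There are 3 probes for Cd8a, and the other two were also lowest at 6 h. One of them is printed in 10 spots per array, which read between 26120 and 30090 in untreated cells, between 3274 and 3800 with TCR 6 h and between 5477 and 6285 with IFNβ and TCR 6 h. Spots of this probe varied within an array by an SD of 0.04 to 0.08 on the log2 scale, and its signal fell by 3.01 (SE 0.28). The third Cd8a probe fell by 2.14 (SE 0.35). In all 3 probes the array with IFNβ and TCR 6 h read above the array with TCR 6 h.

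Cd8b1 encodes the beta chain, which forms the heterodimer with CD8 alpha on conventional T cells. Its signal (chr6:71287068-71287126) was 215500 and 214900 in untreated cells, 312000 and 364400 with IFNβ, 232400 and 205300 at 1 h of TCR, and 78300 and 72200 at 6 h. Cd8b1 fell by 1.92 (SE 0.29, limma adjusted p = 0.0029). As for Cd8a, the arrays with IFNβ alone were the highest and the 6 h arrays the lowest.

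Markers of some other cells also fell at 6 h. There, 5 of 7 B cell markers, 4 of 5 class II genes, 3 of 5 NK cell markers and 1 of 9 myeloid markers fell, beside 22.7% of all genes. None of the 4 erythroid or 4 CD4 T cell markers passed at 6 h, and none of the genes in these 6 lists rose at that time. At 1 h Cd40lg, of the CD4 T cell list, rose by 4.895 (limma adjusted p = 0.028), where 2.48% of all genes rose. Its signal was 9.352 and 9.042 in untreated cells, 6.118 and 5.684 with IFNβ alone, 544 with TCR 1 h and 88.54 with IFNβ and TCR 1 h. The Cd40lg probe was well above background on only 3 of the 8 arrays. The size of its rise therefore rests on very dim readings without TCR. Cd4 itself did not pass at 1 h (adjusted p = 0.82). Only probes well above background on at least 2 arrays were kept, so every measured marker met that limit by rule. The NK list summed to between 91350 and 170400 without TCR and to 41170 and 41700 at 6 h, nearly all of it from Klrd1 (115200 and 118000 in untreated cells), which CD8+ T cells can express too. The part of these other cells in the falls of the receptor genes was not tested. In bulk samples such as these, fewer cells of a type and less RNA per cell cannot be told apart.

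The Src family kinase Lck starts the cascade. Its signal (chr4:129225846-129225905) was 61350 and 60320 in untreated cells, 81500 and 95300 with IFNβ, 127800 with TCR 1 h, 82040 with IFNβ and TCR 1 h, 41890 with TCR 6 h and 52390 with IFNβ and TCR 6 h. The TCR 1 h array was the highest and the 6 h arrays were the lowest. At 6 h the difference was -0.71 (95% interval from -1.51 to 0.08) and did not pass in limma (adjusted p = 0.12), although it passed with quantile normalization at -1.45 (adjusted p = 0.0061).

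Zap70 is the kinase that docks on phosphorylated CD3 and zeta chains. Its probe (chr1:36838210-36838269, plus strand on mm9) and that of Lcp2 are the only ones among the 10 genes to rise at 6 h, so the first 30 bases of both are shown.
Zap70: tcctggacttcatcaagcagggtaagagga
Lcp2: gaagtctaagagtgcatggcagacatgaga

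The signal of Zap70 was 16190 and 15440 in untreated cells and 16340 and 17220 with IFNβ alone, a flat baseline. It was 52720 with TCR 1 h, 29020 with IFNβ and TCR 1 h, 92910 with TCR 6 h and 90520 with IFNβ and TCR 6 h. All 4 arrays with TCR stimulation lay above the 4 without it, and both 6 h arrays lay above both 1 h arrays. At 6 h Zap70 rose by 2.44 (SE 0.29, limma adjusted p = 0.0013), which is 5.43-fold. At 1 h the estimate was 1.21 (SE 0.29) and did not pass (adjusted p = 0.075). Of 20 alternatives 3 passed and 17 did not. Among the 3 was the one with the untreated arrays as separate samples (1.26, adjusted p = 0.023). It counts as 2 samples arrays that differed on repeated probes by spot noise.

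Lat is the membrane adaptor phosphorylated by Zap70. Its signal (chr7:133507719-133507778) was 19890 and 19990 in untreated cells, 24020 and 21020 with IFNβ, 30210 with TCR 1 h, 17040 with IFNβ and TCR 1 h, 28420 with TCR 6 h and 32770 with IFNβ and TCR 6 h. Both 6 h arrays were above the 4 arrays without TCR, and the array with IFNβ and TCR 1 h was the lowest of all 8. The estimate at 6 h was 0.48 (95% interval from -0.28 to 1.24), which did not pass in limma (adjusted p = 0.26) and turned to -0.23 with quantile normalization.

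Lcp2 encodes SLP-76, the cytosolic adaptor that joins Lat through Gads. Its signal (chr11:33990902-33990961, plus strand) was 14750 and 14500 in untreated cells, 27570 and 22780 with IFNβ for 2 h and 7 h, 147700 with TCR 1 h, 87160 with IFNβ and TCR 1 h, 107300 with TCR 6 h and 131400 with IFNβ and TCR 6 h. The 4 arrays with TCR lay far above the 4 without, and the 1 h and 6 h arrays overlapped each other. At 6 h Lcp2 rose by 2.53 (SE 0.38, limma adjusted p = 0.0029), which is 5.78-fold.

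After 1 h of TCR stimulation Lcp2 rose and the receptor chains did not pass the test. Lcp2 was the 1 gene of 10 that passed, where 4.16% of all genes tested did (2.48% higher and 1.68% lower). That split was 493 genes higher and 335 lower, and 826 higher and 945 lower with normexp and quantile normalization. It rose by 2.47 (SE 0.38, limma adjusted p = 0.028), a 5.53-fold difference. The estimates for Lck, 0.41 (SE 0.33), and Cd8b1, -0.38 (SE 0.29), did not pass (adjusted p = 0.51 and 0.49). The 2 arrays at 1 h lay above all 4 arrays without TCR for Zap70 and Lcp2 and overlapped them for the other 8 genes, where 15.49% of all genes lay above and 19.35% below.

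The call for Lcp2 at 1 h depended on single arrays. The estimate was 1.87 (adjusted p = 0.12) when the TCR 1 h array was left out, and 3.20 (adjusted p = 0.059) when its partner with IFNβ was. It was 2.64 (adjusted p = 0.074) and 2.50 (adjusted p = 0.085) when the array with 2 h or with 7 h of IFNβ alone was left out, and on the first slide alone it was 2.49 (adjusted p = 0.060). The estimate for Lck at 1 h turned to -0.073 without the TCR 1 h array.

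At 6 h the 2 arrays did not overlap the 4 arrays without TCR for any of the 10 genes. Of these, 3 lay above them (Zap70, Lat and Lcp2) and 7 below, where 35.05% of all genes lay above and 31.69% below. The 7 genes below were those of the receptor, the coreceptor and Lck.

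Setting 6 h against 1 h separates early from late changes, with the limit that the times lie on different slides. Cd247, Cd8a, Cd8b1 and Cd3g were lower and Zap70 was higher at 6 h, 5 of the 10 genes, where 31.8% of all genes passed (16.3% higher and 15.5% lower). That split was 3243 genes higher and 3075 lower, and 4502 higher and 2387 lower with median scaling. Cd247 had an estimate of -2.36 (SE 0.30, limma adjusted p = 0.0035) and Cd8a one of -2.04 (SE 0.33, adjusted p = 0.0070). For Cd8b1 it was -1.54 (SE 0.31, adjusted p = 0.014), for Cd3g -1.24 (SE 0.28, adjusted p = 0.020) and for Zap70 1.23 (SE 0.32, adjusted p = 0.030). Lck had an estimate of -1.13 (SE 0.35, 95% interval from -1.99 to -0.27), which did not pass after adjustment (adjusted p = 0.055). Lcp2 did not pass, with a 95% interval of the difference from -0.93 to 1.07. With the slide as a block Cd247 and Cd8a still passed, and the other 3 did not, at -1.29 for Cd3g (adjusted p = 0.078), -1.65 for Cd8b1 (0.063) and 1.23 for Zap70 (0.12).

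IFNβ was compared over 4 arrays with it and 3 samples without. None of the 10 genes passed in limma, where 0.0503% of all genes did, all of them higher and 0% lower (10 genes, against 1705 at an unadjusted p under 0.05). None of the 10 genes had an unadjusted p under 0.05 either. The only estimate larger than its standard error was that of Cd8a, at 0.50 (SE 0.26, 95% interval from -0.12 to 1.13, adjusted p = 0.66). That model assumes 1 effect of IFNβ with and without TCR, so the single-array pairs are given too, without a test.

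**Figure D4:**
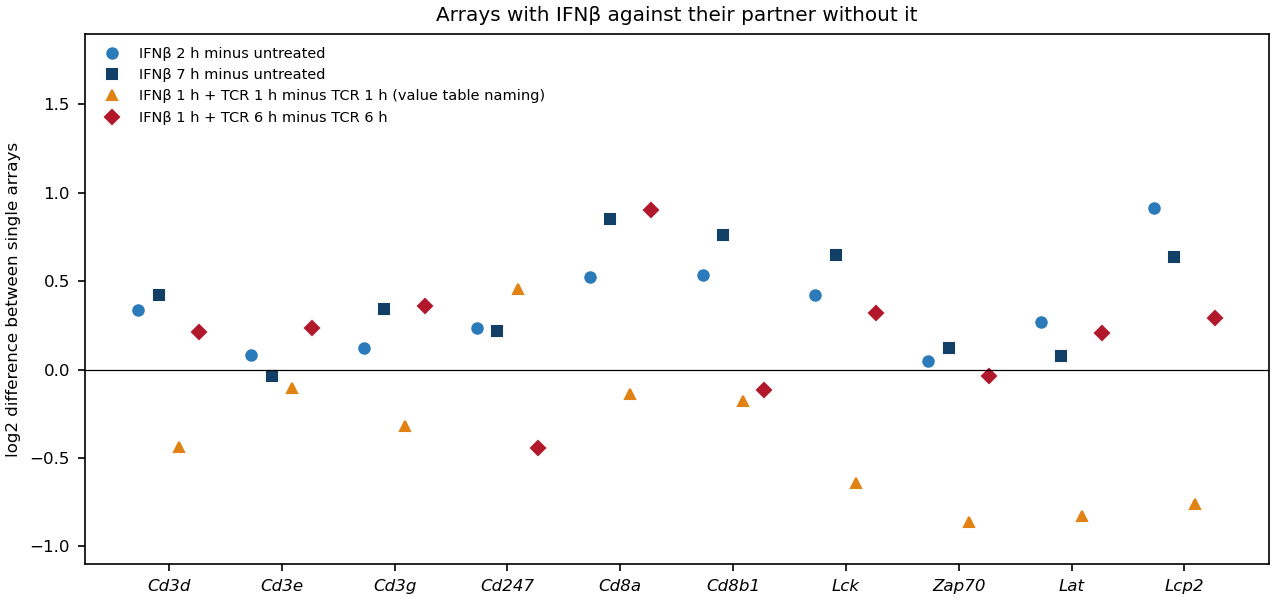
Log2 difference between an array with IFNβ and its partner without, for each gene and each of the 4 pairs, the untreated partner being the mean of 2 arrays. The values for the pair with 1 h of TCR change sign if the scanner files' naming is used.

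With IFNβ alone all 10 genes read higher than the untreated mean at 2 h, and 9 of 10 at 7 h, where 54.33% and 57.21% of all genes did. None of the 10 reached a 2-fold difference in either direction, where 15.33% of all genes did at 2 h and 17.89% at 7 h. Lcp2 was 1.89-fold at 2 h and 1.56-fold at 7 h, Cd8a 1.44-fold and 1.81-fold, Cd8b1 1.45-fold and 1.69-fold, and Lck 1.34-fold and 1.57-fold. The B cell marker sum on the same arrays was the highest of all 8, at 41440 and 35420, and its part in these readings was not tested.

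With 6 h of TCR stimulation the array with IFNβ read 1.87-fold the array without it for Cd8a and 1.28-fold for Cd3g, but 0.736-fold for Cd247. In all, 7 genes were higher and 3 lower in that pair, where 50.47% of all genes read higher. Zap70 was nearly equal between the 2 arrays, at 0.974-fold.

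With 1 h of TCR stimulation 9 of the 10 genes read lower on the array with IFNβ, where 43.09% of all genes read higher. The ratios were 0.550 for Zap70, 0.564 for Lat, 0.590 for Lcp2 and 0.642 for Lck, and Cd247 was the 1 gene above its partner, at 1.38. These ratios rest on the value table's naming of the 2 arrays, and the scanner files' naming turns each of them the other way.

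The wider TCR pathway was described with 76 listed genes, of which 70 were measured. At 1 h 6 rose and 1 fell (10%), and at 6 h 16 rose and 26 fell (60%), beside 4.16% and 44.9% of all genes. The 70 genes and the 26 falls include Pdk1, which was listed although its symbol is that of a metabolic kinase outside this pathway. The median log2 difference of the 70 genes at 6 h was -0.22, against 0.05 for all genes. For the counts by list that follow, 22.2% of all genes rose and 22.7% fell at 6 h, and differences between the lists were not tested. The list counts were made with 75th percentile scaling alone.

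**Figure D5:**
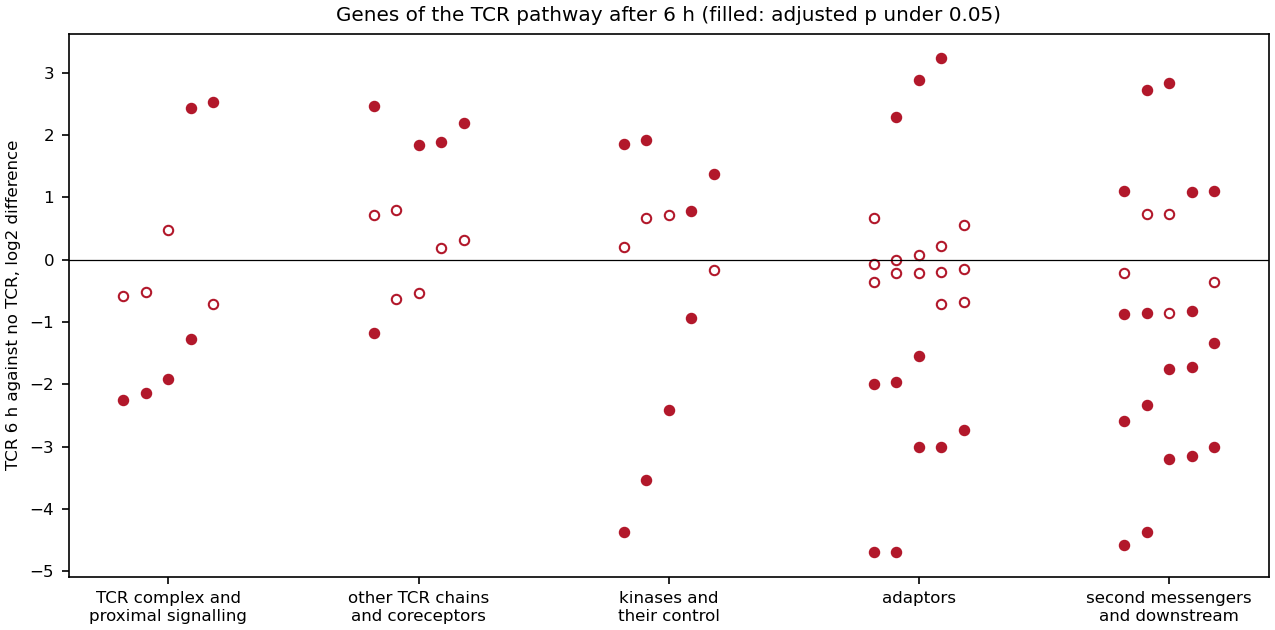
Estimated log2 difference at 6 h of TCR stimulation for each of the 10 genes and for the 70 measured genes of the wider pathway, by list, with points spread sideways only for legibility. Filled points passed an adjusted p of 0.05: 16 of the 70 listed genes rose and 26 fell, Pdk1 among the falls.

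Among the other TCR chains and coreceptors, 4 of 11 measured genes rose at 6 h and 1 fell. A probe named Tcra, for the alpha chain of the receptor, read 14050 and 14910 in untreated cells and 52120 and 55620 at 6 h and rose by 1.89 (SE 0.27), whereas none of the CD3 and zeta chains rose. Constant and variable gene probes can share sequence and the transgene encodes an alpha chain of its own, so which transcript this probe detects was not tested. The 1 fall in this list was that of the other chain probe, Tcrb-J, which read 57.44 and 52.99 in untreated cells and 31.69 and 25.06 at 6 h and fell by 1.18 (SE 0.26, limma adjusted p = 0.012). The costimulatory receptor Icos rose at 1 h by 2.12 (SE 0.34) and was among the 4 largest rises there.

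Of 12 kinases and their controllers, 4 rose and 4 fell at 6 h. Tec, a Tec family kinase, fell at 1 h by 2.55 (SE 0.31), the only fall of the pathway at that time. The phosphatase Ptpn6 (SHP-1), which dampens proximal signalling, rose at 1 h by 1.95 (SE 0.34).

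Of 24 adaptors 3 rose and 8 fell at 6 h. Sh3bp2 rose by 3.23 (SE 0.62) and Sla, an adaptor that promotes loss of the TCR from the surface, by 2.88 (SE 0.46). Fyb, an adaptor for integrin activation that binds SLP-76, fell by 4.69 (SE 0.27) and Sla2 fell by 4.68 (SE 0.26). Sh2d2a, the T cell specific adaptor TSAd, rose at 1 h by 2.06 (SE 0.29).

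Of 23 second messenger and downstream genes, 5 rose and 13 fell at 6 h. Itpr3, an inositol trisphosphate receptor, fell by 4.58 (SE 0.30) and Dgka, which removes diacylglycerol, fell by 4.37 (SE 0.26). Malt1, of the NF-kB branch, rose by 2.84 (SE 0.22), and the calcium channel Orai1 rose at both times, by 3.02 (SE 0.38) at 1 h and 2.73 (SE 0.38) at 6 h.

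The members were compared with each other by the root mean square distance of their centred log2 profiles over the 7 conditions, as a description. The closest pair was Cd3d and Cd3e, at 0.17, followed by Cd3g and Lck at 0.28 and Cd3d and Lck at 0.30. Cd3e entered by its first probe alone, and distances were not taken for its second probe, which read differently. Cd8a and Cd8b1 were 0.33 apart, as were Cd3g and Cd8b1. The widest distances were between Zap70 or Lcp2 and Cd247, at 2.03 each. Zap70 and Lcp2 were 0.59 apart.

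Among 12159 other genes well above background on all 8 arrays, the 3 with profiles most like each of 4 genes were found by the same distance. For Cd8a they were Fhit (0.14), Anxa1 (0.18) and Klf13 (0.21), and for Zap70 Snrnp35 (0.11), Ndfip1 (0.13) and Emc6 (0.14). For Lcp2 they were Tespa1 (0.21), Tmem201 (0.29) and Ptpn6 (0.32). For the first probe of Cd3e, which was nearly flat apart from 6 h, they were Depdc5 (0.08), Supt20 (0.08) and Angel2 (0.10).

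Promoter sequences are shown for the 2 genes that rose at 6 h and for 2 receptor chains that fell. RefSeq promoter windows (build GRCm38.p6) matched 9 of the 10 genes, with 12 windows in all, and Cd8b1 had no entry. Each window below is the 250 bases before the annotated start, 5′ to 3′ in the gene's orientation, and capitals mark matches to 8 short motifs on either strand. The letters searched were TGANTCA for AP-1, the letters CGGAAG for ETS factors, the letters TGTGGT for RUNX factors, the letters CANCTG for an E-box, the letters TGGAAA for NFAT, the letters TATAAA for a TATA box and the letters GGGCGG for a box of GC type. The interferon-stimulated response element (ISRE) was searched as a direct repeat of GAAA with 2 bases between. No motif contains another. The first of 3 Zap70 windows (chr1:36761548-36761797, plus strand) and the Lcp2 window (chr11:34046678-34046927, plus strand) are set against those of Cd247 (chr1:165788431-165788680, plus strand) and Cd3g (chr9:44980432-44980681, minus strand).
Zap70: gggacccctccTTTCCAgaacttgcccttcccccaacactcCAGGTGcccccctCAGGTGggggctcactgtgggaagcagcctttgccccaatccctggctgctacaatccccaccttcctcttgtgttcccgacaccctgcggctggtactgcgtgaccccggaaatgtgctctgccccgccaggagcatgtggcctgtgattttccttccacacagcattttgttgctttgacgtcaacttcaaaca
Lcp2: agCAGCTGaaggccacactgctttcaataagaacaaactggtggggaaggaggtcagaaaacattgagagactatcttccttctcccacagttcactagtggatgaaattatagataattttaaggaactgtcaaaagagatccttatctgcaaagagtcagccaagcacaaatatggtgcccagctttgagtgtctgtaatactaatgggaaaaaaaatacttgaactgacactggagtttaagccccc
Cd247: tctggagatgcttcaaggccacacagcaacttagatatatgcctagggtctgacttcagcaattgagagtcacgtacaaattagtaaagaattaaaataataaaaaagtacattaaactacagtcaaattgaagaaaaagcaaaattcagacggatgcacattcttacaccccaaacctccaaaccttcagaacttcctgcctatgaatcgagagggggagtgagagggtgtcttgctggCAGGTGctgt
Cd3g: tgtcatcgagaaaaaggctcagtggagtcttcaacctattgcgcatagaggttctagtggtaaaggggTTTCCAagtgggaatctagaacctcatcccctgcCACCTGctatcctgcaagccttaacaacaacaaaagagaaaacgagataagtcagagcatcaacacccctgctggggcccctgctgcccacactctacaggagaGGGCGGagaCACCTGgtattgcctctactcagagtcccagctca

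An E-box match was found in 8 of the 12 windows, where 44.8% of 32851 mouse promoter windows held one. NFAT letters were in 3 of 12 (18.6% of all windows), RUNX letters in 2 (14%) and those of the GC type box in 2 (32.7%). No window held the AP-1, ETS, ISRE or TATA letters, which stood in 6.75%, 13.6%, 2.98% and 12.4% of all windows. Such a match is a description of the letters in these windows, not a bound site. Of the 4 sequences shown, the risen Zap70 and the fallen Cd3g each held 2 E-box matches and 1 NFAT match, and Lcp2 and Cd247 each held 1 E-box match.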

How the data were processed

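Signal came from 8 scanner files. Per the file headers the authors made the processed signal, a linear intensity, with Agilent Feature Extraction 10.7.3.1, with coordinates on mm9, while the submitters' processing notes name version 9.5.3.1. The value table deposited by the authors, also intensity, is that processed signal multiplied, array by array, by a constant of 1.209 to 1.857, with 15 as its floor, so its scale and direction are known. Its column medians were 89.57, 102.4, 92.62, 95.78, 92.25, 100.6, 80.68 and 73.76. Its columns for the 2 arrays with 1 h of TCR match each other's scanner file.

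Control and outlier spots (100 to 246 per array) were left out, repeated spots averaged, and log2 intensity scaled to the 75th percentile. Probes well above background on at least 2 arrays were kept (28673 of 41174), and the brightest by mean log2 gave 19892 genes. Symbols of 26690 probes came from RefSeq accessions, 3169 of them differing from the file's name, and 14484 kept the file's name. limma 3.58.1 (R 4.3.3, data.table, version 1.17.8) had 3 residual degrees of freedom over 7 samples, with the untreated arrays averaged. The fit was also run on simulated arrays with additive changes and independent noise, which cannot check whether effects add on these arrays. Arrays left alone at a TCR time in a leave-out were assumed to vary like the others. Between 19887 and 19892 genes had an estimate in each comparison. The number of arrays limits the precision. Alternatives were other scalings, filters, probe rules, slide terms and array names, and each array left out.

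The genes, lists and rules were chosen with earlier results of these data known. Fitted differences are printed for a gene of the set only where they exceed their standard error, apart from intervals. Of the wider pathway, up to 4 risen and 4 fallen genes with the largest differences at each TCR time are named. Tcra, Tcrb-J, Pdk1 and Pdpk1 were named after their values were seen. Nearest profiles were taken for Cd3e, Cd8a, Zap70 and Lcp2, passing over clone and accession names. The sequences of the Cd3e probes are not reported here. Plots used matplotlib 3.10.9 and Python 3.11.15.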

Additional observations from a re-analysis of the deposited data

Results flagged for a closer look

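The response of 5 of the 10 genes differed between 1 h and 6 h of TCR stimulation, by the limma contrast of the times. The same contrast passed for 31.8% of all genes. On the log2 scale, TCR 6 h minus TCR 1 h was -2.36 for Cd247 (SE 0.30, adjusted p = 0.0035), -2.04 for Cd8a (SE 0.33, adjusted p = 0.0070), -1.54 for Cd8b1 (SE 0.31, adjusted p = 0.014) and -1.24 for Cd3g (SE 0.28, adjusted p = 0.020). It was 1.23 for Zap70 (SE 0.32, adjusted p = 0.030). The times lie on different slides, and for Cd8b1, Cd3g and Zap70 the difference did not pass with the slide as a block.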

How the results depend on the processing

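No paired analysis was possible because only the untreated arrays carry replicate numbers, and the slide was fitted as a block in its place. Over 21 alternatives at 6 h, Cd247, Cd8a, Cd8b1, Zap70 and Lcp2 kept their direction and their call, with ranges of -2.72 to -1.84, -2.66 to -1.81, -2.63 to -1.59, 1.73 to 2.77 and 1.78 to 2.86. Cd3g ranged from -2.05 to -0.95 and lost its call once. Cd3d and Lck passed in 2 alternatives each and Cd3e in 4. Other scalings, filters and probe rules choose the probe anew, so the Cd3e passes do not all read its first probe. By linear mean the second Cd3e probe was taken (-1.84), and the mean of probes (-1.18) includes it. The Cd3e estimate was -1.70 with quantile normalization and -0.52 with separate untreated arrays. Lcp2 at 1 h lost its call in 5 of 20 alternatives, and between 6 h and 1 h Cd3g lost it in 5 of 19, Cd8b1 in 4 and Zap70 in 6, while Lck passed in 7, Cd3e in 3 and Cd3d in 2. Taking the brightest probe by linear mean was added after seeing the data. The direction turned for Lat at 6 h (-0.25 with normexp and quantile normalization, -0.23 with quantile normalization), for Lat between 6 h and 1 h (-0.18 and -0.11 with the same settings, and -0.078 without IFNβ and TCR 1 h, with 0.934 as the other end of the leave-one-out range) and for Lck at 1 h (-0.073 without TCR 1 h, with 1.01 as the other end). The cause was not tested.

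Genes passing for IFNβ numbered 84 with separate untreated arrays, 47 with median scaling, 25 with the deposited value table, 74 with probes above background on all 8 arrays, 50 with the slide as a block and 280 on slide 1, and 0 with normexp and quantile normalization, with quantile normalization, on slide 2, with the scanner files' naming and without both 1 h TCR arrays. For TCR 1 h they numbered 2535 with separate untreated arrays, 1771 with normexp and quantile normalization, 533 with no filter, 1660 with probes above background on all 8 arrays, 437 on slide 1 and 358 with the scanner files' naming. Of the 10 genes, 2 passed at 1 h with separate untreated arrays, with normexp and quantile normalization and with probes above background on all 8 arrays, and 0 on slide 1. Between 6 h and 1 h, 2788 genes and 2 of the 10 passed with the slide as a block. Leaving out each array in turn, genes passing ranged from 0 to 276 for IFNβ, 33 to 815 for TCR 1 h, 4693 to 8887 for TCR 6 h and 2778 to 6319 between the times, and of the 10 from 0 to 0, 0 to 1, 5 to 6 and 2 to 5. Median scaling moved the median of all genes at 6 h from 0.05 to 0.37.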
